A study of Mus musculus with 6 samples.

Results

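Matrix metalloproteinases and their tissue inhibitors (TIMPs) were read from microarrays of mouse high-grade glioma cells, as all probe sets whose platform gene symbol was Mmp2, Mmp9, Mmp14, Mmp15, Mmp16, Timp1, Timp2, Timp3, Timp4 or Adam10. Of these 10 genes 9 had probe sets, 24 of the 22690 on each array, and Mmp15 was not analysed here. The gliomas of 4 arrays grew from neural progenitors of strain BALBc INK4a -/- given EGFRvIII, a truncated EGF receptor that signals without ligand. Those of 2 arrays, the basis of comparison, grew from BALBc progenitors given PDGF-B, a growth factor of glial progenitors. Per the labels, progenitors were taken from embryonic day 14 mice, transduced with a retrovirus carrying the driver and a fluorescent reporter, and grafted into the brains of adult BALBc mice, and reporter-positive cells were sorted once glioma symptoms appeared. As reporter both DsRed and EGFP appear in the labels, and the cells are described both as cultured and as sorted from dissociated tumours. Every EGFRvIII sample lacked INK4a and no PDGF-B sample did, so the driver and this genotype cannot be told apart in any difference below.

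Matrix metalloproteinases are zinc enzymes that cut matrix and cell-surface proteins. Mmp2 and Mmp9, the gelatinases, are secreted, whereas Mmp14, Mmp15 and Mmp16 are anchored in the membrane, and Adam10 is a membrane sheddase of the related ADAM family that cuts Notch and N-cadherin. TIMPs bind the active site and block it: Timp1, Timp2 and Timp4 are diffusible, Timp3 binds to the matrix and also blocks several ADAM enzymes, and Timp2 additionally takes part in the activation of pro-Mmp2 by Mmp14. In brain tumours these enzymes are known for the remodelling of matrix at the invasive edge.

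Of the inhibitors, Timp3 and Timp2 had the largest differences between the drivers, and only Timp3 passed the test. Promoter windows are printed for both and for Timp4. They run from 250 bases before to 50 bases after the gene's start, come from RefSeq on build GRCm38.p6, and matched 7 of the 10 genes. Capitals mark matches, on either strand, to GGGCGG (the GC box) or to CCAAT (named for its letters). The AP-1 motif, TGANTCA, and the TATA box, spelled TATAAA, were searched on both strands as well and had no match in these windows. No match of one motif overlapped that of another here. Timp3 lies on the plus strand (chr10:86300162-86300461), Timp2 on the minus strand (chr11:118355362-118355661) and Timp4 on the minus strand (chr6:115252156-115252455), and each is written 5′ to 3′ in the direction of its gene.
Timp3: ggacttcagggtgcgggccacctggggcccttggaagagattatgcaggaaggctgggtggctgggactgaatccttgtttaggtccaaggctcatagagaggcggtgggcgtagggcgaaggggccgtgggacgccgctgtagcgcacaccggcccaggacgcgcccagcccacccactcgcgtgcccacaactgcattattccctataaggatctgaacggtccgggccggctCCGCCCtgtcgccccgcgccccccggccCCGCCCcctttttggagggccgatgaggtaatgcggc
Timp2: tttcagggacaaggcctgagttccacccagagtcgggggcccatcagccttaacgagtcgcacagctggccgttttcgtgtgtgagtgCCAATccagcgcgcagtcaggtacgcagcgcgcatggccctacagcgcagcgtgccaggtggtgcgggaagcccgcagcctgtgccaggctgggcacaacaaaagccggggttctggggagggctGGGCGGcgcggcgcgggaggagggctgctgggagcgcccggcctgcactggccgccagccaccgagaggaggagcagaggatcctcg
Timp4: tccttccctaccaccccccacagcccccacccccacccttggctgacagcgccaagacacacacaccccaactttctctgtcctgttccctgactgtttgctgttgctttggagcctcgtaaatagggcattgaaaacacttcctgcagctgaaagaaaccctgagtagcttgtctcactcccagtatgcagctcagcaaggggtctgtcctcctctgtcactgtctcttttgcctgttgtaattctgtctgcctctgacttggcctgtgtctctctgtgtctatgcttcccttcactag
The Timp3 window held 2 GC boxes, both on the opposite strand, and the Timp2 window 1 GC box and 1 CCAAT box, while the Timp4 window held neither. Of 32851 windows of this length in the same table, 35.7% held a GC box, 37.4% a CCAAT box, 13.6% a TATA box and 7.81% an AP-1 match. CG dinucleotides numbered 24 in the Timp3, 25 in the Timp2 and 2 in the Timp4 window, beside a median of 7 over all windows. GC boxes were also matched in windows not printed, 3 in Adam10, 2 in Mmp14 and 1 each in Mmp15 and Timp1. Those windows held 32, 10, 22 and 8 CG and 2, 2, 0 and 1 CCAAT boxes, in that order. GC boxes and high CG counts were thus not particular to Timp2 and Timp3. These counts describe the letters of the windows only, since nothing measured in this study bears on what binds there.

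Values are log2 intensities from RMA, a method that corrects background, makes the arrays' distributions alike and summarises the probes of a probe set; differences are EGFRvIII minus PDGF-B on this log2 scale. Array medians lay between 6.71 and 6.84 in EGFRvIII and at 6.66 in both PDGF-B arrays, 0.13 higher on average in EGFRvIII. The median difference over all 22626 probe sets was -0.0045, so this gap in medians was not an offset shared by every difference. Cdkn2a, the INK4a locus, stood at 3.78, 3.78, 3.70 and 3.78 in the EGFRvIII arrays and at 6.83 and 6.77 in the PDGF-B arrays, so it was lower in every array labelled INK4a -/- although no source used here places its probe set inside or outside the deletion. Xist lay between 3.85 and 4.46 in EGFRvIII replicates 1 and 2 and between 11.71 and 12.38 in the other 4 arrays. Titles call the replicates biological without naming their animals, so p-values measure the spread between these samples.

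Timp3 was the member whose difference passed the test, and it was higher in EGFRvIII cells on each of its 4 probe sets. Its brightest probe set, 1449334_at, stood at 10.28, 10.28, 10.21 and 9.69 in the EGFRvIII arrays, against 8.23 and 8.88 in the PDGF-B arrays. The lowest EGFRvIII array thus lay above the higher PDGF-B array, and EGFRvIII replicate 4 lay below the other 3 of its group. Averages were 10.11 ± 0.29 in EGFRvIII cells (SD, n = 4) and 8.56 ± 0.46 in PDGF-B cells (SD, n = 2), so Timp3 rose 2.94-fold, a log2 fold change of 1.56 (SE 0.25, 95% interval 0.97 to 2.15; limma adjusted p = 0.0407 over 6761 genes). That test took the brightest probe set of each gene and left out genes above the array median in fewer than 2 arrays; it called 2.23% of genes, 1.64% as higher in EGFRvIII.

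The other Timp3 probe sets gave log2 fold changes of 1.6 (1419088_at), 1.57 (1419089_at) and 1.42 (1449335_at), with no overlap between the groups on any of them. When all 22626 probe sets were tested with no filter on dim ones, 1449334_at kept its call (limma adjusted p = 0.0493), and the others had adjusted p of 0.0775, 0.0778 and 0.0826; this test called 0.849% of probe sets. PDGF-B replicate 2 was above PDGF-B replicate 1 on all 4, by 0.65 to 1.30 on the log2 scale. The SD was 0.46 to 0.92 between the 2 PDGF-B arrays, against 0.18 to 0.29 among the 4 EGFRvIII arrays. The gene-level call of Timp3 ended when any 1 of the 6 arrays was left out (adjusted p 0.0511 to 0.179), with log2 fold changes between 1.23 without PDGF-B replicate 1 and 1.88 without PDGF-B replicate 2. Without PDGF-B replicate 1 the other probe sets had 0.95 (1419088_at), 0.99 (1419089_at) and 0.81 (1449335_at), and without PDGF-B replicate 2 they had 2.25, 2.14 and 2.02. Among only the 4 high-Xist arrays, Timp3 had 1.39 (adjusted p = 0.145).

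**Figure D1:**
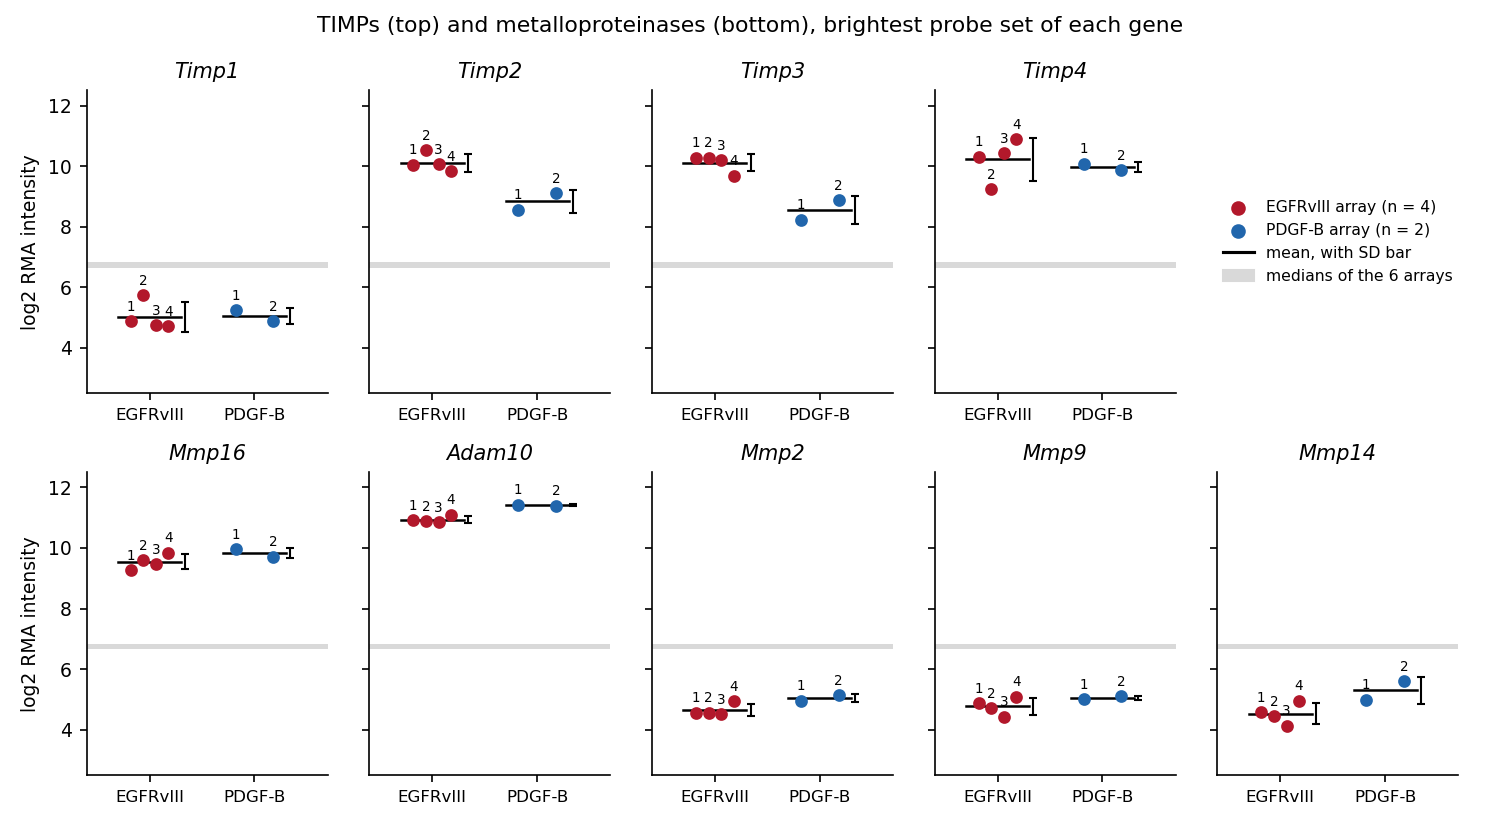
Log2 RMA intensity of each TIMP (top row) and metalloproteinase (bottom row) on its brightest probe set; each point is 1 array, labelled with its replicate number, with the group mean (line) and SD (bar), and the grey band spans the 6 array medians. Timp2 and Timp3 lay higher in all 4 EGFRvIII arrays than in both PDGF-B arrays, and Mmp2, Mmp9, Mmp14 and Timp1 lay below the array medians in both groups.

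Timp2, the inhibitor that also forms the complex of Mmp14 and pro-Mmp2, was higher on average in EGFRvIII cells by a similar amount but missed the threshold. On its brightest probe set, 1454677_at, it stood at 10.05, 10.53, 10.06 and 9.84 in the EGFRvIII arrays, against 8.56 and 9.11 in the PDGF-B arrays. The groups did not overlap, and EGFRvIII replicate 2 was the highest array. The means were 10.12 ± 0.29 in EGFRvIII cells (SD, n = 4) and 8.84 ± 0.39 in PDGF-B cells (SD, n = 2), a log2 fold change of 1.28 (SE 0.24, 95% interval 0.71 to 1.85; limma adjusted p = 0.0501). In 4 of 18 alternative settings it fell under 0.05, among them the fit without EGFRvIII replicate 2 (log2 fold change 1.14, adjusted p = 0.0491).

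All 6 Timp2 probe sets had a positive log2 fold change, from 0.72 (1460287_at) to 1.30 (1437081_at), and on 5 of them the groups did not overlap, where 15.8% of all probe sets had EGFRvIII values entirely above PDGF-B values. The exception was 1450040_at, at 8.47, 9.37, 8.90 and 9.06 in EGFRvIII and at 7.90 and 8.53 in PDGF-B cells, with EGFRvIII replicate 1 just under PDGF-B replicate 2. Without PDGF-B replicate 1, 4 of the 6 log2 fold changes moved by over 1.5 times, to 0.42 (1460287_at and 1450040_at), 0.73 (1420924_at) and 0.83 (1437081_at). EGFRvIII replicate 2 was the highest and PDGF-B replicate 1 the lowest array on all 6. In the test over all probe sets the adjusted p of the Timp2 probe sets ran from 0.0625 to 0.212, and all 6 had an unadjusted p under 0.05, where 10.6% of all probe sets did with a higher EGFRvIII mean. The suffix of 1433662_s_at (log2 fold change 1.28) marks a design whose probes can match more than 1 transcript family, so its signal cannot be assigned to Timp2 alone.

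Timp4 was bright under both drivers and varied more among the EGFRvIII arrays than between the groups. Its probe set 1423405_at stood at 10.31, 9.24, 10.44 and 10.90 in the EGFRvIII arrays, against 10.09 and 9.86 in the PDGF-B arrays. EGFRvIII replicate 2 was the lowest of all 6 arrays on both Timp4 probe sets, at 9.24 and 8.06, whereas the other 3 EGFRvIII arrays lay above both PDGF-B arrays. The log2 fold change was 0.25 (SE 0.42, 95% interval -0.75 to 1.25; limma adjusted p = 0.746), an interval wide enough to hold both signs. It was 0.57 without EGFRvIII replicate 2, 0.02 without EGFRvIII replicate 4, 0.14 without PDGF-B replicate 2 and 0.70 in the 4 arrays with high Xist, and passed in none of these. On the second probe set, 1450974_at, it was 0.41 (SE 0.38; limma adjusted p = 0.58 over all probe sets), 0.72 without EGFRvIII replicate 2 and 0.25 without EGFRvIII replicate 3.

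Timp1, the inhibitor often induced in reactive glia, was dim. Its 1 probe set stood at 4.88, 5.73, 4.76 and 4.71 in the EGFRvIII arrays and at 5.25 and 4.88 in the PDGF-B arrays, below the median of every array. The group means of 5.02 ± 0.48 in EGFRvIII cells (SD, n = 4) and 5.07 ± 0.26 in PDGF-B cells (SD, n = 2) differed by less than either SD, and EGFRvIII replicate 2 alone stood clear of the rest.

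Among the proteases, Adam10 and Mmp16 were bright. Adam10, on probe set 1428103_at, stood at 10.91, 10.88, 10.86 and 11.10 in the EGFRvIII arrays, against 11.43 and 11.40 in the PDGF-B arrays. The groups did not overlap, but the log2 fold change of -0.48 (SE 0.12, 95% interval -0.78 to -0.18) did not pass the test (limma adjusted p = 0.0821). The other Adam10 probe sets gave -0.09 (1450104_at) and -0.24 (1450105_at) with overlapping groups. For 1428103_at, centring each array on its median gave -0.60 and quantile normalization gave -0.46, and neither passed. Centring moved the median difference over all probe sets to -0.13.

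Mmp16, a membrane-anchored protease, had a small negative difference on both of its probe sets. On 1422626_at it stood at 9.04, 9.25, 9.17 and 9.54 in the EGFRvIII arrays, against 9.77 and 9.74 in the PDGF-B arrays, with no overlap. On 1437568_at the values were 9.27, 9.60, 9.47 and 9.84 in EGFRvIII and 9.96 and 9.71 in PDGF-B cells, and EGFRvIII replicate 4 lay between the PDGF-B arrays. The log2 fold changes were -0.50 (limma adjusted p = 0.161 over all probe sets) and -0.29 (limma adjusted p = 0.369 over genes), and neither passed. The second was -0.16 without PDGF-B replicate 1 and -0.18 among only the 4 high-Xist arrays.

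The gelatinases Mmp2 and Mmp9 and the membrane protease Mmp14 were dim in all 6 arrays: none of their 6 probe sets reached the median of any array. At such levels an RMA value can be largely background, which compresses a fold. Mmp14 had the largest differences of these genes. On 1416572_at it stood at 4.58, 4.44, 4.13 and 4.96 in the EGFRvIII arrays, against 4.99 and 5.6 in the PDGF-B arrays, a log2 fold change of -0.77 (limma adjusted p = 0.181 over all probe sets). On 1448383_at it stood at 4.03, 4.04, 3.89 and 4.39 in EGFRvIII and at 4.32 and 5.40 in PDGF-B cells, also -0.77 (limma adjusted p = 0.218). The second difference rested on PDGF-B replicate 2: without that array it was -0.23, and the first was -0.46.

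Mmp9 had log2 fold changes of -0.27 and -0.25, with values between 3.87 and 5.10 over both probe sets and overlapping groups; the first was -0.16 without EGFRvIII replicate 3 and the second -0.06 without PDGF-B replicate 2. Mmp2 had a probe set of each sign. It stood at 3.57, 3.78, 3.44 and 3.58 in EGFRvIII and at 3.47 and 3.27 in PDGF-B cells on 1416136_at (log2 fold change 0.22), and at 4.56, 4.56, 4.52 and 4.95 in EGFRvIII and at 4.96 and 5.14 in PDGF-B cells on 1439364_a_at (-0.40). No direction can be given for Mmp2 from these values, and none of these 4 probe sets passed (limma adjusted p 0.233 to 0.465).

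Set side by side, 12 of the 13 TIMP probe sets had a positive and 10 of the 11 protease probe sets a negative log2 fold change, with medians of 1.28 and -0.29, while the median over all 22626 probe sets was -0.0045. The groups did not overlap on 9 TIMP probe sets, all higher in EGFRvIII and all of Timp2 or Timp3, and on 4 protease probe sets, all lower in EGFRvIII, where 15.8% and 15.7% of all probe sets did so in each direction. Probe sets of 1 gene measure the same RNA and are not separate observations, so the 12 positive probe sets stand for 3 genes, Timp2, Timp3 and Timp4. The 4 protease probe sets without overlap were 1 each of Mmp2, Mmp14, Mmp16 and Adam10, and on every other probe set of these genes the groups overlapped. Those of Mmp2 and Mmp14 were dim, and 6 of the 11 protease probe sets lay below the median of every array. Whether the TIMPs as a class differed from the proteases was not tested. Of the 5 members bright enough for the gene-level test, each above the median in all 6 arrays on its brightest probe set, 1 passed.

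**Figure D2:**
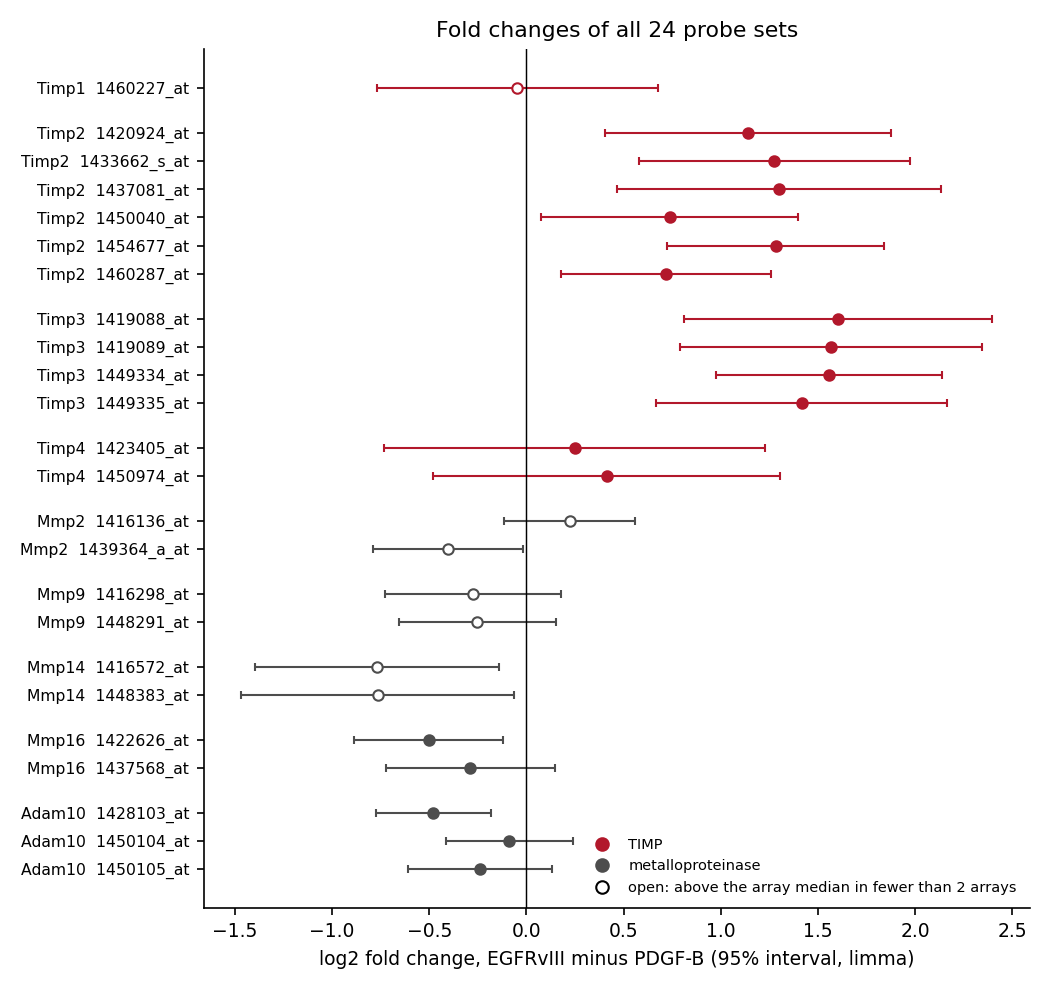
Log2 fold change (EGFRvIII minus PDGF-B) with its 95% limma interval for each of the 24 probe sets, TIMPs in red and metalloproteinases in grey; open symbols mark probe sets above the array median in fewer than 2 arrays. All 10 probe sets of Timp2 and Timp3 lay between 0.72 and 1.6, and protease probe sets lay between -0.77 and 0.22.

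**Figure D3:**
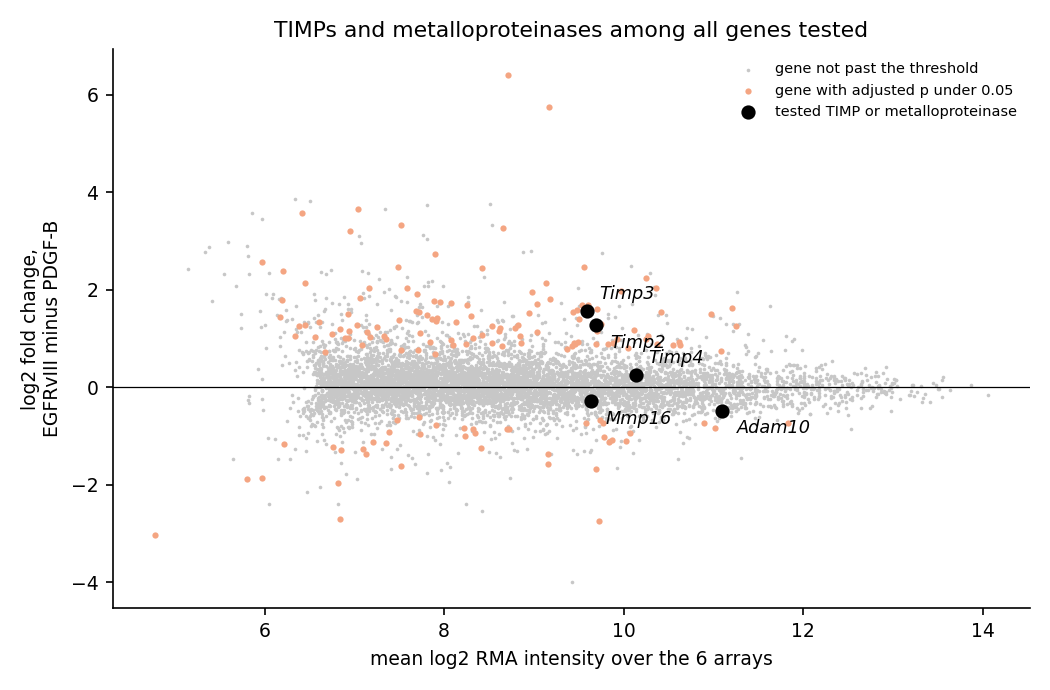
Log2 fold change (EGFRvIII minus PDGF-B) against mean log2 RMA intensity for the 6761 genes tested, with genes past the threshold in orange and the 5 tested members in black. Timp3 and Timp2 lay at 1.56 and 1.28, and Adam10 at -0.48.

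Of 97 listed genes of the wider protease network, in 6 lists, 80 had a probe set and 45 were tested, of which 0 passed by limma. An unadjusted p under 0.05 was found for 8 genes higher and 2 genes lower in EGFRvIII, where 15.7% and 9.32% of all genes tested had one. The other matrix metalloproteinases were mostly dim: 11 of 13 on the array were not bright enough to be tested. Mmp24 and Mmp17, the 2 that were, had log2 fold changes of 0.07 and -0.08. Of 7 tested ADAM genes none passed by limma and 1 had an unadjusted p under 0.05; this was Adam9, a sheddase like Adam10, at 10.94, 10.76, 10.73 and 10.79 in EGFRvIII and at 10.45 and 10.07 in PDGF-B cells (log2 fold change 0.55, adjusted p = 0.0914, and 0.36 without PDGF-B replicate 2). Adam12 was next by p (-0.28, adjusted p = 0.427), at -0.59 without PDGF-B replicate 1 and with its sign turned without PDGF-B replicate 2. Of 3 tested ADAMTS genes, aggrecanase relatives that Timp3 can block, none passed and none had an unadjusted p under 0.05; Adamts4 had 1.10 (adjusted p = 0.264), with EGFRvIII replicate 2 at 10.35 and the others of its group between 8.16 and 8.98, and had 0.66 without that array.

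Among 9 tested activators and other inhibitors of proteases none passed by limma. An unadjusted p under 0.05 was found for 2, where 1689 of all 6761 genes tested had one. A2m, a broad protease trap, had 1.33 (adjusted p = 0.119), and Lrp1, an endocytic receptor that clears proteases and TIMPs, had 0.69 (adjusted p = 0.135), which was 0.35 without PDGF-B replicate 2. Of 13 tested matrix genes none passed by limma and 3 had an unadjusted p under 0.05, no larger a share than over all genes tested. The list median was 0.31 beside 0.06 over all genes tested. Vcan, the proteoglycan versican, stood at 11.78, 11.99, 11.29 and 11.83 in EGFRvIII and at 10.04 and 10.81 in PDGF-B cells (log2 fold change 1.29, adjusted p = 0.0596). Bcan, the brain proteoglycan brevican, had 0.81 (adjusted p = 0.0619), also without overlap.

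For Adam10, 11 substrates and tetraspanin partners of the TspanC8 group, which carry it to the cell surface, were tested. None passed by limma and 4 had an unadjusted p under 0.05, where 1689 of all 6761 genes tested did. Tspan15, such a tetraspanin, differed by 0.80 on the log2 scale (adjusted p = 0.0827) and Notch1, a substrate, by 0.82 (adjusted p = 0.0926), both with all EGFRvIII arrays above both PDGF-B arrays. The other 2 went the opposite way and are named after their values were seen. Tspan33, another TspanC8 member, stood at 6.40, 6.17, 7.07 and 7.22 in EGFRvIII and at 8.10 and 7.58 in PDGF-B cells, a difference of -1.13 on the log2 scale (adjusted p = 0.108). Efnb1, an ephrin, had -0.36 (adjusted p = 0.193). Of the 11 genes 7 had a positive and 4 a negative log2 fold change.

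Of the TIMP genes, 3 lie inside synapsin genes in the RefSeq annotation, Timp1 in Syn1, Timp3 in Syn3 and Timp4 in Syn2, with Timp1 and Timp4 on the strand opposite to their host. Synapsins coat the vesicles of nerve endings. Syn2 rose 2.64-fold, standing at 8.58, 8.07, 8.23 and 8.45 in EGFRvIII and at 6.80 and 7.07 in PDGF-B cells (log2 fold change 1.40, SE 0.18; limma adjusted p = 0.0266, which ended without EGFRvIII replicate 1 or 4 or either PDGF-B array, at 0.063 to 0.14). The Syn2 call also ended with Xist as a covariate (adjusted p = 0.124), in the 4 arrays with high Xist (0.0822) and with the replicate number as a block (0.121). Its nested gene Timp4 had 0.25 on the same arrays, and both were at their lowest among the EGFRvIII arrays in replicate 2. Syn3, host of Timp3, was too dim for the gene-level test and had 0.62 on its 1 probe set (limma adjusted p = 0.125 over all probe sets). Syn1 did not pass (-0.33). The sources used here do not say how the labelled cDNA of the opposite strand would read on these probe sets.

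Timp3, Timp2 and Timp4 had the largest spread over the 6 arrays among tested members, with SDs of 0.86, 0.72 and 0.56, against 0.26 for Adam10 and 0.25 for Mmp16. Likeness was measured as the root mean square difference between profiles, each centred on its own mean over the 6 arrays; smaller is more alike. Timp2 and Timp3 differed from each other by 0.21 and Mmp16 and Adam10 by 0.17, while Timp3 and Adam10 differed by 1.02. Profiles were not scaled, so members with small SDs, such as Mmp16 and Adam10, come out close whatever their shapes. Nearest to Timp3 among all genes tested were Ctnnal1 (0.17), the MAP kinase phosphatase Dusp1 (0.19) and Sash1 (0.19), and the median gene lay at 0.78. Nearest to Timp2 were Tbc1d23 (0.10), Pnrc1 (0.13) and Yipf1 (0.15), with a median of 0.67. Nearest to Timp4 were Fndc4 (0.21), the transcription factor Zic2 (0.21) and Id2, an inhibitor of helix-loop-helix factors (0.23), with a median of 0.57.

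Markers show what the sorted cells were. All 7 markers of oligodendrocyte progenitors on the array were bright, with array means of 11.38 to 11.81 in EGFRvIII and 11.56 to 11.63 in PDGF-B cells, and Pdgfra was the brightest. Array means of the microglia and macrophage (4.14 to 4.27 and 4.34 to 4.40), neutrophil (3.99 to 4.28 and 4.24 to 4.32), endothelial (4.28 to 4.34 and 4.44 to 4.66) and ependymal and choroid plexus markers (4.69 to 5.08 and 5.03 to 5.14) were low in EGFRvIII and PDGF-B cells, and no gene of these 4 lists was bright enough to be tested. In brain tumours Mmp9 is well known from neutrophils and Mmp14 from microglia, but the part of such cells in the dim Mmp9 and Mmp14 values was not tested. Pericyte and fibroblast markers were dim as well, at 4.84 to 5.01 in EGFRvIII and 4.70 to 4.77 in PDGF-B cells. Neuron markers lay at 4.97 to 5.31 in EGFRvIII and 5.43 to 5.996 in PDGF-B cells, without a call among the 2 tested.

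Markers of differentiated glia were higher on average in EGFRvIII cells. All 8 astrocyte markers had a higher mean there, 3 of them without overlap (16.7% of all 12393 genes with a probe set were so), with array means of 6.99 to 8.89 in EGFRvIII and 6.30 to 6.54 in PDGF-B cells. Of 6 mature oligodendrocyte markers 5 had a higher mean, 3 without overlap, with array means of 6.28 to 7.78 in EGFRvIII and 5.70 to 5.77 in PDGF-B cells. Of these genes 4 astrocyte and 2 oligodendrocyte markers were bright enough to be tested and none of them passed by limma, and their part in the Timp2 and Timp3 differences was not tested. EGFRvIII replicate 2 had the highest mean of mature oligodendrocyte markers (7.78), the highest Timp2 and the lowest Timp4 of all arrays, and the lowest mean of astrocyte markers among the EGFRvIII arrays (6.99). Both PDGF-B arrays had lower oligodendrocyte means (5.77 and 5.70) than every EGFRvIII array. They also had less Timp2 (8.56 and 9.11) and less Timp3 (8.23 and 8.88). The values compared here were picked after they were seen, and no link between markers and TIMPs was tested. Timp4 was highest in EGFRvIII replicate 4 (10.90), at an astrocyte mean of 7.68. Both PDGF-B arrays had more Timp4 (10.09 and 9.86) than EGFRvIII replicate 2 (9.24), at lower astrocyte means (6.30 and 6.54). Timp3 stood at 10.28 in EGFRvIII replicates 1 and 2, whose oligodendrocyte means were 6.86 and 7.78. In such sorted but bulk samples more cells of a type and more RNA per cell cannot be told apart.

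**Figure D4:**
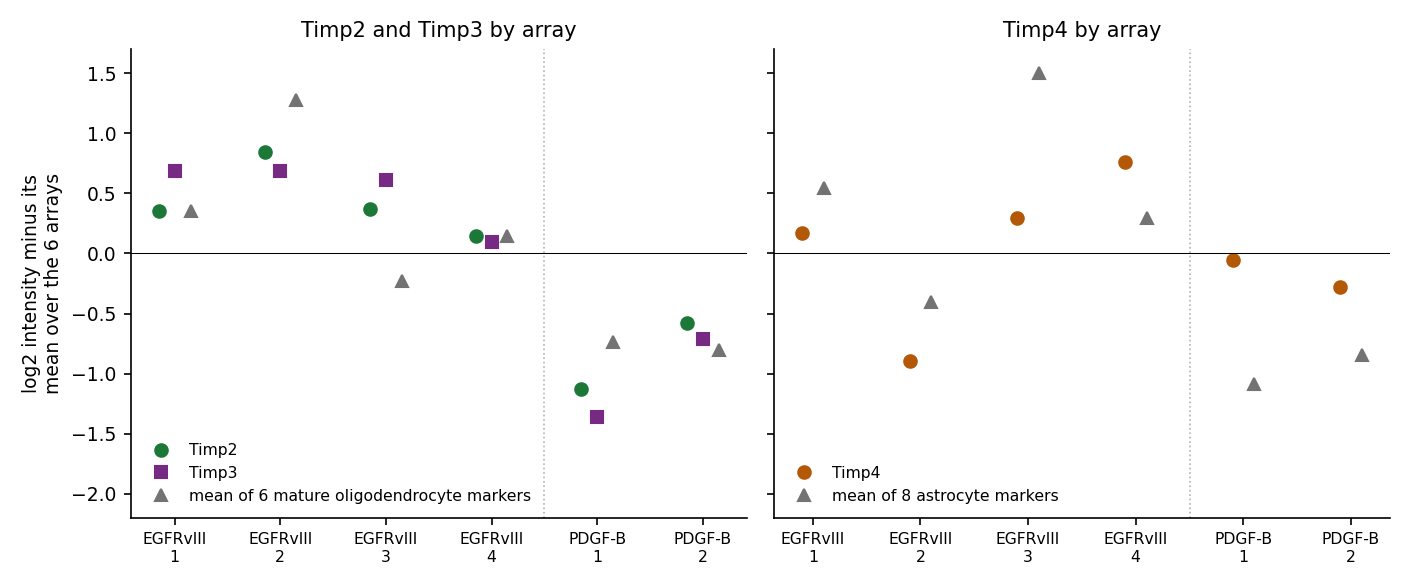
Log2 RMA intensity minus its mean over the 6 arrays, for each array, of Timp2 and Timp3 with the mean of 6 mature oligodendrocyte markers (left) and of Timp4 with the mean of 8 astrocyte markers (right). Timp2 and Timp3 lay above their mean in all 4 EGFRvIII arrays and below it in both PDGF-B arrays, whereas Timp4 was lowest in EGFRvIII replicate 2; the marker lists drawn were chosen after their values were seen.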

How the data were processed

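RNA of sorted glioma cells (30 ng) was amplified to cDNA, biotin labelled and hybridized, 1 array per sample, per the labels' protocols. The authors deposited RMA log2 intensities, with RMA and affy 3.4.2 named per the submitters' processing notes; values between 2.22 and 14.4 fit base 2. Both deposited tables were equal within 5.0e-09, and no detection calls were used. The number of arrays limits the precision.

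Probe sets were named from the platform annotation (1 symbol for 20380 of 22626 non-control probe sets, several for 691, none for 1555), updated by Entrez identifier for 20351. EGFRvIII and PDGF-B arrays were compared with limma 3.58.1 in R 4.3.3 (lmFit and eBayes, two-sided, no covariate, Benjamini-Hochberg adjusted p under 0.05), once over 6761 genes (of 12393; brightest probe set per gene, above the median of an array in at least 2 arrays) and once over all 22626 non-control probe sets. The procedure was also run on simulated data, with noise drawn independently for each gene or probe set and array. Such data hold no effect shared within an array, so they do not show how the procedure performs on the real arrays. Every member is named; of other lists up to 4 called genes, or the 2 of smallest p. The members, lists, tests and alternatives were chosen with earlier results of these data known. Alternatives covered scaling, filters, probe set averaging, variance model, array weights, replicate block, each array left out and Xist. Figures were drawn with matplotlib 3.10.9.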

Additional observations from a re-analysis of the deposited data

Results flagged for a closer look

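A single EGFRvIII array stood away from its group in 5 of the 46 values examined; about 1 in 20 would do so by chance. Timp3 on 1449334_at was at 9.69 in EGFRvIII replicate 4 and between 10.21 and 10.28 in the others. Timp1 on 1460227_at was at 5.73 in EGFRvIII replicate 2, against 4.71 to 4.88, at a level below the median of every array. Mmp2 on 1439364_a_at was at 4.95 in EGFRvIII replicate 4, against 4.52 to 4.56, also dim. Brevican (Bcan) reached 10.57 in EGFRvIII replicate 3, the others lying between 10.06 and 10.12. Ependymal and choroid plexus markers averaged 5.08 in EGFRvIII replicate 4, the others lying between 4.69 and 4.73.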

How the results depend on the processing

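Of 643 values of members and named genes under the alternatives, 628 kept their sign, including every one of Timp2, Timp3, Mmp14, Mmp16 and Adam10. Some of these values could not turn. The equal deposited table, the brightness filters and the trended robust variance leave a log2 fold change as it was. The count of 151 genes became 77 with no filter on dim genes, 265 with a filter on all 6 arrays, 254 with a trended robust variance, 3 with Xist as a covariate, 16 in the 4 arrays with high Xist and 5 at an adjusted p under 0.01, and lay between 1 (without PDGF-B replicate 1) and 155 with 1 array left out. The 192 probe sets became 316 with a filter on dim ones, 340 with a trended robust variance, 305 with array weights and 3 at an adjusted p under 0.01, and lay between 2 and 245 with 1 array left out. Of the members, 1 gene passed (Timp3), and 2 did with the filter on all 6 arrays, the trended robust variance or array weights. With no filter, probe sets averaged per gene, either Xist setting or an adjusted p under 0.01, 0 passed. With 1 EGFRvIII array left out, 0 to 1 passed, the 1 being Timp2 without EGFRvIII replicate 2 and not Timp3. In the settings with 0, 3 or 4 of the 5 members had an unadjusted p under 0.05 by limma. So did 2540 of 12393 genes with no filter, 1542 of 6210 with averaging, and 1091 and 1099 of 6761 in the Xist settings. The 1 member probe set became 2 with a filter on dim probe sets or a trended robust variance. It became 0 with each array centred, with quantile normalization, at an adjusted p under 0.01 and with any 1 EGFRvIII array left out. An unadjusted p under 0.05 by limma was met by 15 of 24 member probe sets with either scaling. Of all 22626 probe sets, 5151 met it when centred and 4579 after quantile normalization. With 1 EGFRvIII array left out, 12 to 14 member probe sets met it, beside 3682 to 4786 of all. With each array centred, 61 genes were higher and 55 lower, against 111 and 40; probe sets split 64 to 75, against 126 to 66. Signs that turned belonged to values that did not pass: with 1 array left out, Timp1 ran from -0.28 to 0.14, Mmp17 from -0.44 to 0.28, Mmp24 from -0.10 to 0.24, Adam12 from -0.588 to 0.0303 and Adamts10 from -0.0612 to 0.327, and Mmp24 was -0.0538 with each array centred and -0.0431 after quantile normalization. Both drivers have replicates 1 and 2, but the labels tie no number to a shared litter or day; deviations of same-numbered arrays correlated at 0.20 and 0.25 across genes. With the replicate block 9 genes, 11 probe sets, 0 member genes and 0 member probe sets passed. An unadjusted p under 0.05 by limma was met there by 3 member genes and 14 member probe sets, beside 1647 of 6761 genes and 4471 of 22626 probe sets. Timp3 had 1.72 with the block (adjusted p = 0.101), Timp1 0.24 and Timp4 -0.20. Levels under the array medians, those of Mmp2, Mmp9, Mmp14 and Timp1, limit what their differences can show.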
